A study of Mus musculus with 7 samples.

Results

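The rows described here were 6 of the 48440 gene rows in a count table of mouse pancreatic islets, and all 6 were among the 4218 rows with enough counts to be tested. Of these, 5 rows have exons on the strand opposite a gene of the extracellular matrix. 2810430I11Rik and Gm13372 lie opposite Col5a1, Gm12426 lies opposite Col15a1, Gm9913 lies opposite Fbn1 and Apol7d lies opposite Fn1. The sixth row is Itgb1, an integrin gene. The rows were chosen by their symbols, and they were selected on their fold changes and calls between VLX-1005 and vehicle, which were known beforehand. Their values in that comparison are therefore a description, and no test of the members was drawn from them.

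The islets came from NOD.hALOX12 mice given VLX-1005 at 30 mg/kg per day for 4 weeks (3 libraries) or vehicle for 4 weeks (4 libraries). VLX-1005 is a small-molecule inhibitor of human 12-lipoxygenase, an enzyme that oxygenates arachidonic acid. In mice of both groups the human ALOX12 coding region stood in place of mouse Alox15 under the mouse regulatory region, on the nonobese diabetic (NOD) background, in which autoimmunity destroys β cells. The methods of the study describe oral dosing of female prediabetic mice, collagenase release of the islets, picking by hand and recovery overnight, and the labels give strand-specific libraries of polyadenylated RNA. Whether the libraries are from different animals is not stated in the labels, so p-values measure the spread between these libraries, which may be partly technical.

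The extracellular matrix around and between islet cells holds fibrils, a basement membrane and adhesive glycoproteins. Fibrillar collagens such as collagen V form the fibrils, collagen XV lies beside basement membranes, fibrillin builds elastic microfibrils that bind latent TGF-β, and fibronectin links collagen to cells. Cells hold on to these proteins through integrins, receptors made of an α and a β chain that connect the matrix with the actin cytoskeleton. The β chain encoded by Itgb1 is shared by receptors for collagen, laminin and fibronectin, and in islets it holds β cells to the basement membrane of the capillaries.

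Libraries held 1024586 to 1430785 counts. A row with 0 counts could still have had up to 3 counts, which equals 2.08 to 2.92 CPM, where CPM is the count relative to the library total, adjusted with TMM factors. Such limits, and the intervals on shares and ratios, cover counting error only. All 8 markers of β cells had counts in both groups, and summed to 170 to 304 CPM with VLX-1005 and 251 to 340 CPM with vehicle. Acinar markers summed to 29.8 to 110 CPM with VLX-1005 and 29.5 to 92.8 CPM with vehicle, and duct markers to 18.5 to 26.3 CPM with VLX-1005 and 13.5 to 19.5 CPM with vehicle. Rows annotated as ribosomal RNA took 2.55%, 3.14% and 2.15% of the counts in VLX-1005 replicates 1 to 3, all above the 1.69% to 2.11% in the vehicle libraries. The strand setting of the authors' counting is not given in the sources used here. Reads of a gene and of the row opposite it therefore cannot be told apart. For any row, markers included, it is not known which strand the counts came from. Each row is named as it was counted, and whether it holds RNA of its own strand was not tested.

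On mm10 with GENCODE release M21, 4 of the 5 opposite rows lay at the start of the matrix gene. The row 2810430I11Rik (chr2:27882925-27887052, minus strand, a processed transcript) runs head to head with Col5a1 and shares 99 bp with it, 401 to 499 bp inside the 5′ end of Col5a1. That overlap is 2.9% of the 3416 bp of exon in the row, and 3189 bp of exon lie upstream of Col5a1. Gm13372 (chr2:28025417-28030437, minus strand, a processed transcript) lies near the other end of Col5a1, with 113 of its 688 bp opposite coding exon sequence that begins 139168 bp into a gene of 153090 bp. Gm12426 (chr4:47197487-47208459, minus strand, antisense) shares 14 of its 371 bp with Col15a1, at 285 to 298 bp from the 5′ end. Gm9913 (chr2:125505089-125507881, plus strand) is annotated as protein-coding with 1 exon, and 2442 of its 2793 bp (87.4%) face Fbn1, start codon included. Apol7d (chr1:71652837-71662843, plus strand) is annotated as antisense with 4 transcripts, and 292 of its 2091 bp face the 5′ end of Fn1, start codon included. Itgb1 (chr8:128685654-128733200, plus strand, protein-coding) has no annotated gene on the other strand within its span.

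For 4 rows, the part that faces coding exon of a matrix gene is given on the strand of the row, 5′ to 3′, because a read there can belong to either gene. No stretch of Gm9913 is printed, since its 2442 bp opposite Fbn1, of which 164 bp face coding sequence of Fbn1, are untranslated in Fbn1, in Gm9913 or in both. They are from GENCODE M21 transcripts on mm10, at chr2:27886826-27886924 (2810430I11Rik, minus strand), chr2:28025593-28025705 (Gm13372, minus strand), chr4:47208446-47208459 (Gm12426, minus strand) and chr1:71652837-71652982 (Apol7d, plus strand). The capitals in Apol7d mark the complement of the start codon of Fn1, read on the strand of the row.
2810430I11Rik: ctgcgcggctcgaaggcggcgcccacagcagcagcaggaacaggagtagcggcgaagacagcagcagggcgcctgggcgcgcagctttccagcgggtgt
Gm13372: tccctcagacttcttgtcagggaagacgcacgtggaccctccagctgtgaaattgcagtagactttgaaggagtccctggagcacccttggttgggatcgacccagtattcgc
Gm12426: cctgcgcggtcctc
Apol7d: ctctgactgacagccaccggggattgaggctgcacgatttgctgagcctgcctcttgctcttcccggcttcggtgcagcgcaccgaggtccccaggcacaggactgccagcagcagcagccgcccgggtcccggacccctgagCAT
The stretches that begin a matrix gene were rich in G and C, with 70.7% in 2810430I11Rik, 78.6% in Gm12426 and 67.1% in Apol7d, and the stretch deep inside Col5a1 had 54.9%.

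**Figure D1:**
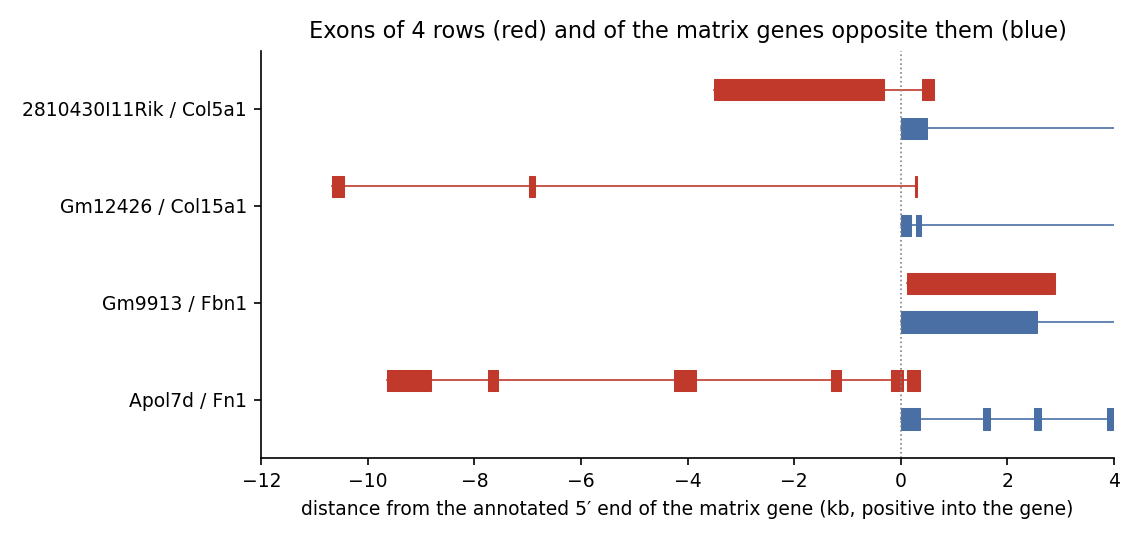
Exons (boxes) of 2810430I11Rik, Gm12426, Gm9913 and Apol7d in red above the exons of Col5a1, Col15a1, Fbn1 and Fn1 in blue, by distance in kb from the 5′ end of the matrix gene, with positive values inside the gene. Most of the exon length of 2810430I11Rik (3189 of 3416 bp) lies outside Col5a1, and Gm9913 lies within the first 3 kb of Fbn1.

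The rows opposite collagen genes were higher with VLX-1005 in every library. 2810430I11Rik had 74.9, 99.3 and 115 CPM in VLX-1005 replicates 1 to 3, against 28, 19.6, 8.35 and 19.9 CPM in vehicle replicates 1 to 4. The lowest VLX-1005 library stood 2.68 times above the highest vehicle library, the widest gap of the 6 rows. The group means were 96.3 ± 20 CPM with VLX-1005 (SD, n = 3) and 19 ± 8.07 CPM with vehicle (SD, n = 4), a log2 fold change of 2.33 ± 0.31 (SE), or 5.02-fold.

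Gm13372, at the other end of the same collagen gene, had 113, 149 and 295 CPM with VLX-1005, against 49.2, 70.5, 52.9 and 68.5 CPM with vehicle. VLX-1005 replicate 3 alone was far above the others, and the groups did not overlap. Its means were 186 ± 96.3 CPM with VLX-1005 and 60.3 ± 10.8 CPM with vehicle, a log2 fold change of 1.62 ± 0.30, the smallest of the 6. The split of counts between both rows opposite Col5a1 also varied. Of the counts on these rows, 2810430I11Rik took 39.9% (Wilson 95% interval 34.2% to 45.8%), 40.0% (34.2% to 46.1%) and 28.0% (24.3% to 32.0%) in VLX-1005 replicates 1 to 3. In the vehicle replicates 1 to 4 it took 36.3% (27.1% to 46.5%), 21.7% (15.2% to 30.1%), 13.6% (7.34% to 23.9%) and 22.5% (15.7% to 31.1%), so that the shares of both groups overlapped.

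Gm12426, opposite the start of the gene for collagen XV, had 39.5, 82.7 and 83.8 CPM with VLX-1005, against 17.8, 14.9, 21.4 and 20.7 CPM with vehicle. VLX-1005 replicate 1 was the low library of its group and the vehicle libraries lay close together. The means were 68.7 ± 25.3 CPM with VLX-1005 and 18.7 ± 2.97 CPM with vehicle, a log2 fold change of 1.87 ± 0.30.

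The rows opposite the genes for the microfibril protein fibrillin and for fibronectin were also higher in every VLX-1005 library. Gm9913, opposite Fbn1, had 34, 94.4 and 65.6 CPM with VLX-1005, against 24.6, 16.4, 13 and 16.7 CPM with vehicle. The distance between the closest libraries of the groups was the smallest of the 6 rows (1.38 times). Its means were 64.7 ± 30.2 CPM with VLX-1005 and 17.7 ± 4.91 CPM with vehicle, a log2 fold change of 1.85 ± 0.35.

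Apol7d, opposite Fn1, had 121, 183 and 168 CPM with VLX-1005, against 70.4, 32.9, 13 and 26.3 CPM with vehicle. Vehicle replicate 1 lay well above the other vehicle libraries and vehicle replicate 3 well below them, and the coefficient of variation was 20.7% with VLX-1005 and 69.0% with vehicle. The means were 157 ± 32.5 CPM with VLX-1005 and 35.6 ± 24.6 CPM with vehicle, a log2 fold change of 2.13 ± 0.43.

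Itgb1, the integrin β chain, had 61, 96.4 and 15 CPM with VLX-1005, against 8.48, 8.62, 7.43 and 10.4 CPM with vehicle. VLX-1005 replicate 3, the highest library for all the rows opposite collagen genes, was the low one here, at 1.45 times the highest vehicle library. In counts, that library had 19 and the vehicle libraries had 10, 11, 8 and 13. The means were 57.5 ± 40.8 CPM with VLX-1005 (coefficient of variation 71.0%) and 8.72 ± 1.21 CPM with vehicle (13.9%), a log2 fold change of 2.69 ± 0.52, both the largest change and the largest error of the 6. The nearest gene on the other strand, Ccdc7a, lies 1034 bp beyond the 3′ end of Itgb1 and had 0 counts in all 7 libraries. Without the strand setting, the counts of the Itgb1 row cannot be assigned to the strand of Itgb1, and its level is given as counted.

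**Figure D2:**
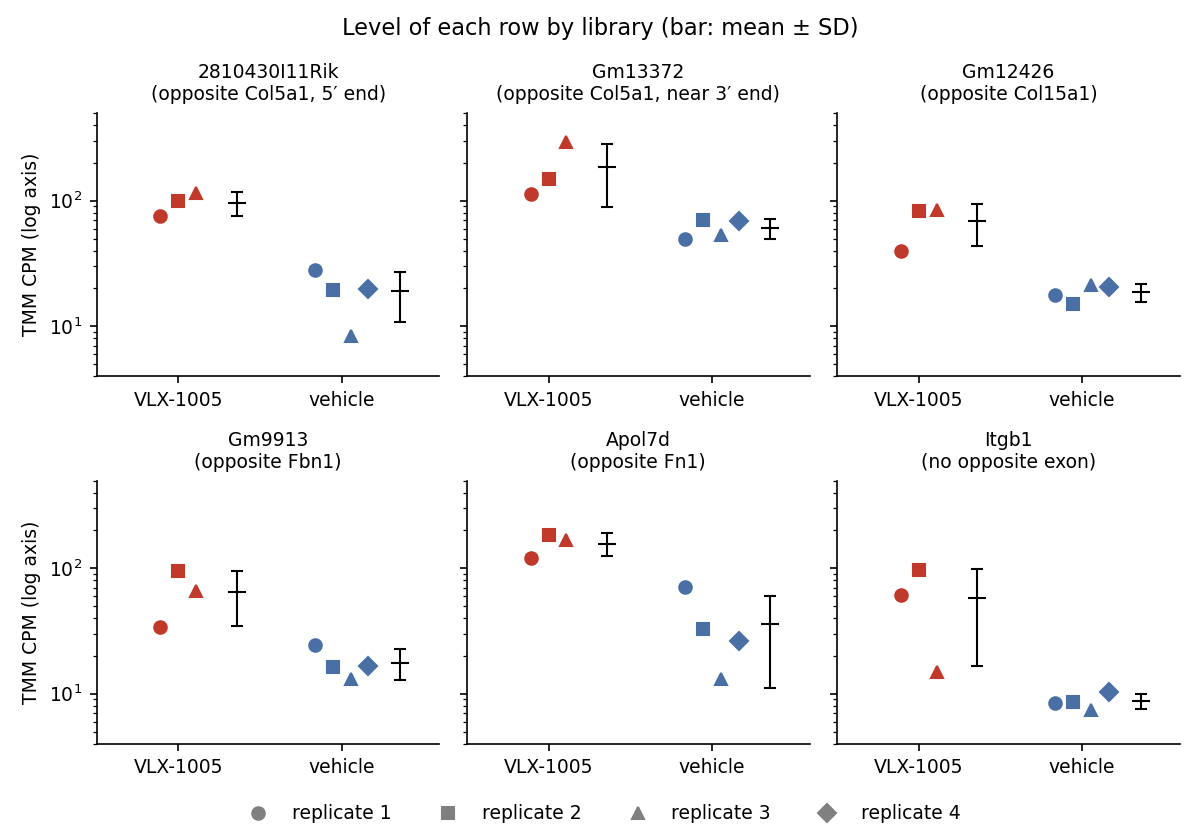
TMM-scaled CPM on a log axis of each of the 6 rows, with 1 point per library (VLX-1005 in red, n = 3; vehicle in blue, n = 4; the marker shape gives the replicate number) and the mean ± SD beside each group. In each panel all VLX-1005 points lie above all vehicle points, with Itgb1 in VLX-1005 replicate 3 (15 CPM) the closest to the vehicle range of that row after Gm9913 in VLX-1005 replicate 1 (34 CPM).

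All 6 rows were called higher with VLX-1005 by the quasi-likelihood test of edgeR at a Benjamini-Hochberg adjusted p under 0.05 over the 4218 tested rows, where 2.37% of all tested rows were called in either direction and 2.35% were called higher. In all 6 rows every VLX-1005 library was above every vehicle library, as in 9.48% of the tested rows, whereas in 8.16% of the tested rows every VLX-1005 library was below. Because the rows were chosen with this contrast known, both counts restate the choice and nothing is read from them. Adjusted p ran from 0.00588 (2810430I11Rik) to 0.0397 (Apol7d). Among the rows higher with VLX-1005, the last called had an adjusted p of 0.0483 and a log2 fold change of 0.55 (Gm26596, opposite Atxn7l3b). The first not called among them had 0.0507 and 1.09 (Gm10645, opposite Tbc1d9). All 6 rows passed the filter on low counts on the vehicle libraries alone. In bulk islets, more cells of a type and more RNA per cell cannot be told apart.

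Per kb of exon, Gm13372 was the highest of the 6 and Itgb1 the lowest in both groups. With VLX-1005 the mean levels were 270 CPM per kb for Gm13372, 185 for Gm12426, 75.1 for Apol7d, 28.2 for 2810430I11Rik, 23.2 for Gm9913 and 14.1 for Itgb1. With vehicle they were 87.6 CPM per kb for Gm13372, 50.4 for Gm12426, 17 for Apol7d, 6.34 for Gm9913, 5.55 for 2810430I11Rik and 2.14 for Itgb1. With VLX-1005 the libraries of Gm13372 and Gm12426, of 2810430I11Rik and Gm9913, and of Gm9913 and Itgb1 overlapped, as did those of 2810430I11Rik and Itgb1, so the order within these pairs is not beyond their spread. With vehicle the same held for Apol7d and Gm9913, for Apol7d and 2810430I11Rik, for Gm9913 and 2810430I11Rik, and for 2810430I11Rik and Itgb1. Counts per row do not show where in a row the reads lay.

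The matrix genes themselves had almost no counts. The rows of Col5a1, Col15a1, Fbn1 and Fn1 together held 28 counts over the VLX-1005 libraries and 12 over the vehicle libraries, whereas the 5 rows opposite them held 2095 over the VLX-1005 libraries and 729 over the vehicle libraries. Col5a1 had 3, 1 and 5 counts with VLX-1005 and 2, 1, 2 and 0 with vehicle. Fbn1 had 0, 2 and 1 counts with VLX-1005 and 0, 0, 0 and 1 with vehicle, and Fn1 had 0 in every VLX-1005 library and 1, 3, 0 and 0 with vehicle. No fold change is given for these rows, since their levels reached at most the limit of 3 counts or little more. Col15a1 had 8, 3 and 5 counts with VLX-1005 and 0, 0, 1 and 1 with vehicle. Its 16 counts against 2 give a ratio of rates of 10.3, with an exact 95% interval of 2.41 to 92.0 that treats the libraries of a group as pooled. None of these 4 rows passed the filter on low counts, so they were not tested.

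The libraries did not rank alike in all 6 rows. VLX-1005 replicate 3 was the highest library for 2810430I11Rik, Gm13372 and Gm12426, and VLX-1005 replicate 2 was the highest for Gm9913, Apol7d and Itgb1. VLX-1005 replicate 1 was the lowest of its group in 5 of 6 rows, with Itgb1 the exception. Within vehicle, replicate 3 was the lowest in 4 of 6 rows, and replicate 1 the highest in 3 of 6.

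To set the rows side by side, the mean over the 7 libraries was subtracted from the log2 CPM of each row, and the absolute difference between the centred values of each pair of rows was averaged over the libraries. This distance is a description that includes the difference between the groups, which the choice of rows fixed. 2810430I11Rik and Apol7d, on different chromosomes, had the smallest distance of the 15 pairs (0.21), and each was nearer to the other than to any of the remaining tested rows. Within vehicle, both were highest in replicate 1 (−0.37 and 0.20 on the centred log2 scale) and lowest in replicate 3 (−1.94 and −2.10). Gm12426 was next to Gm13372 (0.30) and to Gm9913 (0.30). The rows opposite Col5a1 stood farther apart, at 0.57, and 80 tested rows were nearer to 2810430I11Rik than Gm13372 was, and 573 were nearer to Gm13372 than 2810430I11Rik was. Itgb1 stood farthest from the others, with distances of 0.64 (Gm9913) to 0.87 (Gm13372). The median distance of each row to the other members was 0.44 to 0.72, and to all tested rows 0.77 to 1.20.

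**Figure D3:**
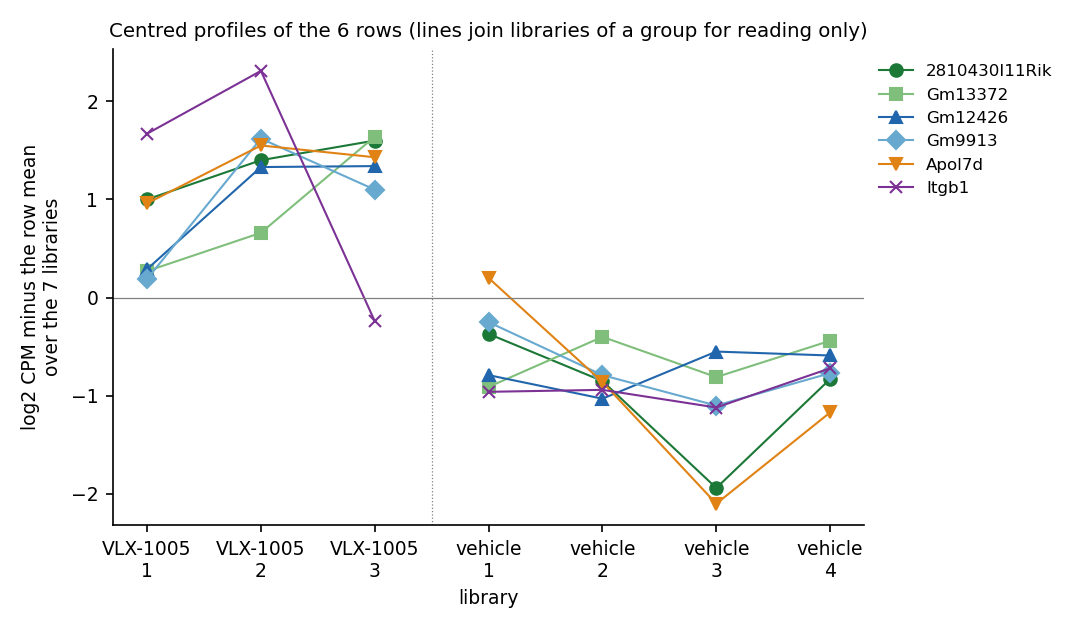
Log2 CPM of each of the 6 rows minus the mean of that row over the 7 libraries, by library (VLX-1005 replicates 1 to 3, then vehicle replicates 1 to 4); lines join the libraries of a group to ease reading. The lines of 2810430I11Rik and Apol7d run together down to −1.94 and −2.10 in vehicle replicate 3, and Itgb1 drops to −0.24 in VLX-1005 replicate 3, where the other 5 rows are at 1.10 to 1.64.

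The tested rows with profiles most like that of Itgb1 lie opposite genes outside the matrix. Gm43137, opposite Ankle2, was at a distance of 0.11, with 65.2, 121 and 17.4 CPM with VLX-1005 and 9.33, 9.4, 10.2 and 13.5 CPM with vehicle. It shared with Itgb1 the low value in VLX-1005 replicate 3. Next were Gm9768 (opposite Klhl21, 0.23), Mgme1 (opposite Snx5, 0.26), Cnbd2 (opposite Scand1, 0.27) and Gm11973 (opposite Purb, 0.28). All 5 had their highest level in VLX-1005 replicate 2 and their lowest VLX-1005 level in replicate 3. The ribosomal RNA share had the same order (3.14%, 2.55% and 2.15% in VLX-1005 replicates 2, 1 and 3), and a link was not tested. The log2 fold changes of the 5 rows ran from 1.87 ± 0.45 (Cnbd2) to 2.84 ± 0.51 (Gm11973), and Gm9768 and Cnbd2 were not called.

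The rows nearest the mean profile of the 6 members were Prcd (opposite Cygb, distance 0.17), Gm43714 (opposite Khdc4, 0.18), B230322F03Rik (opposite Nudt19, 0.25), 4930539J05Rik (opposite Ube2d3, 0.27) and Elf1 (opposite Wbp4, 0.27). Prcd had 44.4, 90.5 and 65.6 CPM with VLX-1005 and 17, 14.1, 15.8 and 17.5 CPM with vehicle, a log2 fold change of 2.04 ± 0.28. Cygb, opposite it, encodes the globin cytoglobin. The other 4 had log2 fold changes of 1.45 ± 0.21 (4930539J05Rik) to 1.85 ± 0.32 (Gm43714).

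Beyond the 6 rows, 6 lists of 202 genes for collagen chains, matrix glycoproteins, proteoglycans, integrin chains, integrin adaptors, and matrix assembly and turnover enzymes were read from the same fit. Of the rows of these genes themselves, Itgb1 left out, 22 were tested and 0 were called. All of the 22 but Tns2 also have exons opposite another gene, such as Itga4 (opposite Cerkl) and Igfbp7 (opposite Polr2b). They are therefore not a set free of overlap on the other strand, and their counts too can come from either gene. At an unadjusted p under 0.05 the edgeR test passed 5 of the 22 (22.7%), against 759 of all tested rows (18.0%), and DESeq2 called 0 in either direction. Their median log2 fold change was −0.00, with 11 above 0 and 11 below, and the median of all tested rows was −0.01, with 49.1% above 0.

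Among collagen chains only Col22a1 (log2 fold change −0.85 ± 0.36) and Col4a1, a chain of basement membrane collagen (0.20 ± 0.42), had enough counts to be tested. The matrix glycoproteins with the smallest p were Igfbp7 (0.64 ± 0.28), Efemp2, a fibulin of elastic fibres (0.83 ± 0.58), and Mfap4, a microfibril protein (0.44 ± 0.48). No proteoglycan row was tested. Of the integrin chains, Itgav, the α chain of vitronectin receptors, had 23.8 ± 11.6 CPM with VLX-1005 and 12.2 ± 6.7 CPM with vehicle (0.95 ± 0.44), and Itga4, an α chain of leukocyte integrins that pairs with the Itgb1 product, had −0.23 ± 0.16. Among the adaptors Actn1, an actin crosslinker at adhesions, had the highest value of the 22 (1.72 ± 0.50). Its level was 11.5 ± 5.21 CPM with VLX-1005 and 3.38 ± 0.892 CPM with vehicle. Actn1, with 16 counts over the vehicle libraries, and Efemp2, with 26, did not pass the filter on those libraries alone. Ilk, a pseudokinase that binds the tail of β integrins, had −0.33 ± 0.11, and Itgb1bp1, which binds the tail of the Itgb1 product, had 0.44 ± 0.27. Of the enzymes and their inhibitors, Mmp19 had 0.50 ± 0.23, the lysyl oxidase relative Loxl3 −0.25 ± 0.14 and the metalloproteinase inhibitor Timp4 −0.22 ± 0.19. None of these values passed the adjusted threshold.

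Of the rows opposite genes of the lists, the 5 members left out, 38 were tested, of which 4 (10.5%) were called higher and 0 lower, against 2.35% and 0.0237% of all tested rows. Their median log2 fold change was 0.49, with 32 above 0 and 6 below. In 7 of the 38 all VLX-1005 libraries lay above all vehicle libraries, against 9.48% of all tested rows. Tested rows opposite a protein-coding gene within 500 bp of its 5′ end were called higher in 8.12%, and those overlapping farther away in 0.763%. The 38 rows were not split in this way. The lists were chosen with earlier results of these data known, so these counts describe the lists and are not a test of them. Passing the filter on low counts with the vehicle libraries alone was not required of these rows. The count of 4 changed with the libraries. It was 9 without VLX-1005 replicate 1, 1 without VLX-1005 replicate 2, 0 without vehicle replicate 1 or 3, 2 without vehicle replicate 2 and 1 without vehicle replicate 4.

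The called rows lay opposite genes of 4 lists. Gm38391, opposite Plod2, a lysyl hydroxylase of collagen, had 25.7, 58.4 and 46.6 CPM with VLX-1005 and 6.79, 14.9, 3.71 and 9.56 CPM with vehicle (log2 fold change 2.27 ± 0.42, edgeR adjusted p = 0.0188). Among the vehicle libraries only replicates 2 and 4 of Gm38391 reached the filter level of 7.82 CPM. This row was therefore tested, and counted among the called rows, only because of its VLX-1005 libraries. D030025P21Rik, opposite Ltbp2, a microfibril-associated glycoprotein, had 116, 305 and 202 CPM with VLX-1005 and 69.6, 32.1, 58.5 and 53.4 CPM with vehicle (1.96 ± 0.33, edgeR adjusted p = 0.0188). Gm15419, opposite Col4a2, a basement membrane collagen chain, had 188, 317 and 419 CPM with VLX-1005 and 119, 170, 135 and 123 CPM with vehicle (1.17 ± 0.24, edgeR adjusted p = 0.0335). In all of these the groups were apart in every library. Gm26716, opposite the syndecan gene Sdc3, had 460, 796 and 604 CPM with VLX-1005 and 294, 269, 261 and 424 CPM with vehicle (0.99 ± 0.21, edgeR adjusted p = 0.0365), and here too the lowest VLX-1005 library was above the highest vehicle library.

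The remaining rows did not pass. Opposite collagen genes, C430014B12Rik (opposite Col4a3) had a log2 fold change of 0.60 ± 0.19 and Col4a1, which has exon sequence opposite Col4a2, the value given with the collagen chains. Opposite glycoprotein genes, 8030451A03Rik (opposite Tnc, tenascin C) had 1.41 ± 0.44 and Polr2b (opposite Igfbp7) 0.46 ± 0.16. Opposite proteoglycan genes, Gm15851 (opposite Prelp) had 1.59 ± 0.44 and Cenpp (opposite Aspn) −0.16 ± 0.40. The 3 rows opposite integrin chains had 1.04 ± 0.46 for Gm13684 (opposite Itgav), 1.28 ± 0.57 for Cerkl (opposite Itga4) and 0.22 ± 0.59 for B230344G16Rik (opposite Itgb4). Of the 8 rows opposite adaptor genes the smallest p were those of Asap2 (opposite Itgb1bp1, −0.96 ± 0.30), Gpr17 (opposite Lims2, 0.69 ± 0.33) and Rrp8 (opposite Ilk, 0.31 ± 0.20). Opposite enzyme genes, all 11 rows had values above 0, among them Gm15737 (opposite Adamts9, 1.34 ± 0.38) and Znhit1 (opposite Plod3, 0.45 ± 0.14), and Gm38391 was the called one.

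**Figure D4:**
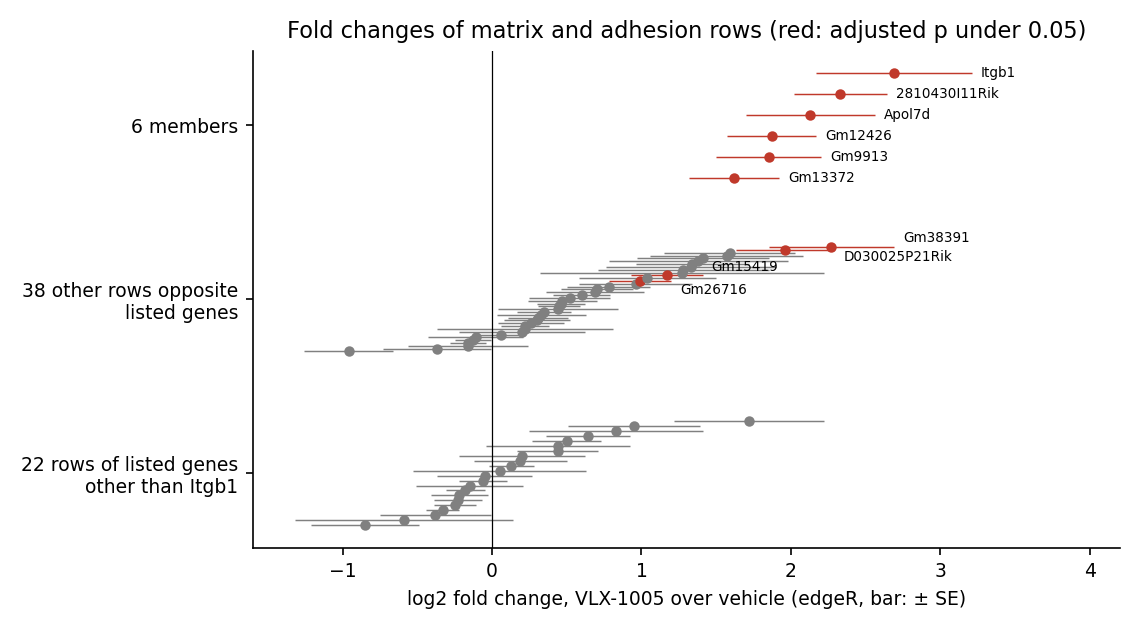
Log2 fold change of VLX-1005 over vehicle (edgeR, point ± SE) for the 6 members, 38 other tested rows opposite genes of the matrix and adhesion lists, and 22 tested rows of the listed genes themselves, with rows called at an adjusted p under 0.05 in red. The members lie at 1.62 to 2.69, the other opposite rows at −0.96 to 2.27 with 4 called, and the rows of the genes themselves at −0.85 to 1.72 with 0 called.

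Markers of fibroblasts and stellate cells, which make much of the fibrillar matrix, were near the counting limit. Of 10 such markers 5 had counts in each group, Dcn, Pdgfra, Acta2 and Lum had 0 counts in all libraries, and the sum over the list was 7.79 to 13.4 CPM with VLX-1005 and 3.98 to 8.62 CPM with vehicle. Endothelial markers summed to 7.9 to 10.7 CPM with VLX-1005 and 5.57 to 12.7 CPM with vehicle, with Emcn at 0 throughout, and macrophage markers to 276 to 314 CPM with VLX-1005 and 249 to 320 CPM with vehicle, with Adgre1 at 0 throughout. Of the macrophage sum, 98.4% to 99.7% was the row Csf1r, which lies opposite Hmgxb3, and the other markers of that list summed to 2.08 to 4.87 CPM with VLX-1005 and 0.848 to 3.98 CPM with vehicle. The ranges overlapped for each of these lists. No fibroblast, stellate or endothelial marker had enough counts to be tested, and of the macrophage markers only Csf1r was tested and it was not called. Since the strand of the counts is not known, these sums are levels of the rows as counted and do not measure cell content. The part of these cells in the levels of the 6 rows was not tested.

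The calls of the members depended on single libraries, more for some rows than for others. 2810430I11Rik was called whichever of the 7 libraries was left out, with log2 fold changes of 2.09 to 2.57 over all settings. Gm12426 lost its call without vehicle replicate 1 and kept it without any other library. Gm13372 and Gm9913 kept theirs without VLX-1005 replicate 1 or 3 and lost it without VLX-1005 replicate 2 or any vehicle library. Gm13372 fell to a log2 fold change of 1.10 without VLX-1005 replicate 3, its highest library, but was still called. Apol7d kept its call only without vehicle replicate 1, its highest vehicle library, where the log2 fold change was 2.68. Itgb1 kept its call only without VLX-1005 replicate 3, its lowest VLX-1005 library, where it was 3.13. The number of members called was thus 4, 2 and 5 without VLX-1005 replicates 1, 2 and 3, and 2 without any of vehicle replicates 1 to 4. Over all tested rows the number called higher was 99 with all libraries, 103, 29 and 198 without VLX-1005 replicates 1, 2 and 3, and 14, 23, 16 and 18 without vehicle replicates 1, 2, 3 and 4.

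The ribosomal RNA share was higher in each VLX-1005 library than in any vehicle library, as were the 6 rows. With that share as a covariate none of the 6 was called, and of the tested rows 0 were called in edgeR (260 at an unadjusted p under 0.05, 5 of them members). The log2 fold changes were then 2.46 for 2810430I11Rik, 2.15 for Gm13372, 1.75 for Gm12426, 1.44 for Gm9913, 2.04 for Apol7d and 1.08 for Itgb1. Itgb1 thereby had the largest fall, and 2810430I11Rik and Gm13372 were above their values without the covariate. The share and the treatment cannot be told apart in these libraries. In none of the 16 other settings did any of the 6 rows change direction.

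**Figure D5:**
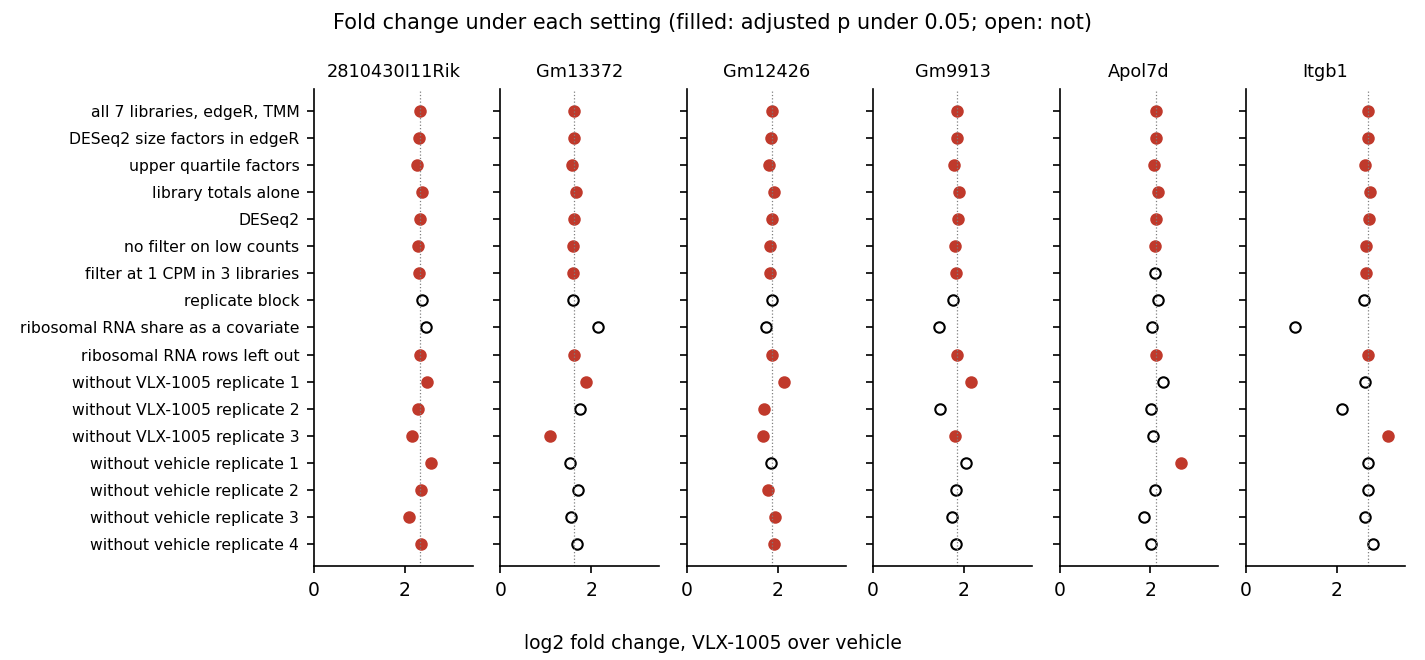
Log2 fold change of VLX-1005 over vehicle of each of the 6 rows under the setting used in the text (top, dotted line) and 16 other settings; filled red points were called at an adjusted p under 0.05 and open points were not. All points are above 0, 2810430I11Rik is open in 2 of the 16 settings and Apol7d in 9, and the ribosomal RNA share as a covariate gives the lowest point for Itgb1 (1.08).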

How the data were processed

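The authors deposited a table of raw counts with a row for each Ensembl gene and a column for each library, not normalized. The submitters' processing notes name Trimmomatic, FastQC, HTSeq, DESeq2 and mm10, and the methods of the study add HISAT2 and Galaxy. Not given in the sources used here are versions, the annotation release and the strand setting. Without the strand, a count can come from either gene of an overlapping pair, and in a row with no gene opposite, from either strand.

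Gene IDs were matched to GENCODE M21, which placed 48058 rows and left 382 without a position. Exon overlaps on opposite strands were listed with bedtools 2.31.1. Groups were compared in R 4.3.3 with edgeR 4.0.16, by its two-sided quasi-likelihood test, with scaling by TMM, filterByExpr (in effect 10 counts in a library of median size in at least 3 libraries) and no covariate. The filter left 4218 rows, and p-values were Benjamini-Hochberg adjusted over them and called at 0.05. Log2 CPM used a prior count of 2. The SE of a log2 fold change was taken from the fold change and its F statistic. Level per kb used the total exon length of a row. Totals of 1024586 to 1430785 counts limit the precision of low rows.

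The members, the gene lists and the rules were chosen with earlier results of these data known. Named rows are the 6 members, the genes opposite them, up to 3 tested rows with the smallest p of each list and of the rows opposite it, and the 5 rows nearest Itgb1 and nearest the mean profile of the members. Ccdc7a, Gm26596, Gm10645, Csf1r and Tns2 and the markers at 0 were named after their values were seen. Alternatives were other scaling factors, DESeq2 1.42.0, other filters, a replicate block, each library left out in turn, and the ribosomal RNA share as a covariate or its rows left out. All 7 libraries and all columns were used.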

Additional observations from a re-analysis of the deposited data

How the results depend on the processing

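Depth limits the matrix genes themselves, which reached at most 8 counts in a library, and the members at their lowest counts (8 to 33 in the vehicle libraries of 2810430I11Rik, Gm12426, Gm9913 and Itgb1). Of the rows called higher, 99 of all tested rows, 6 members and 4 rows opposite the listed genes, the counts were 187, 6 and 8 with DESeq2, 250, 6 and 10 with no filter on low counts (18578 rows tested), and 159, 5 and 5 with a filter at 1 CPM in 3 libraries (9034 rows tested), under which Apol7d lost its call. They were 0, 0 and 0 with the ribosomal RNA share as a covariate (260, 5 and 10 at an unadjusted p under 0.05 in edgeR). Leaving out 1 library gave 14 (without vehicle replicate 1) to 198 (without VLX-1005 replicate 3) of all rows, 2 (without any vehicle library or VLX-1005 replicate 2) to 5 (without VLX-1005 replicate 3) members, and 0 (without vehicle replicate 1 or 3) to 9 (without VLX-1005 replicate 1) opposite rows. With DESeq2 size factors in edgeR, upper quartile factors, library totals alone or ribosomal RNA rows left out, the counts were 95 to 116, 6 and 4. No row of the listed genes themselves was called higher under any of the 16 settings (edgeR and DESeq2; 0 to 13 at an unadjusted p under 0.05, in either direction). The cause of these changes was not tested.

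With the replicate number as a block, which leaves out vehicle replicate 4, 7 of all rows, 0 members and 0 opposite rows were called higher. At an unadjusted p under 0.05 these were 572, 6 and 18 rows. The replicate numbers gave no sign of pairing, with correlations of the deviations from the group means of −0.0348, −0.0196 and 0.0879 for replicates 1, 2 and 3, and VLX-1005 replicates 1 and 2 correlated best with vehicle libraries of another number. The members kept log2 fold changes of 1.59 (Gm13372) to 2.61 (Itgb1) under the block.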

Other observations

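An overlap at the start of the gene on the other strand, which 4 of the 5 opposite rows had, was common among the rows called higher. Of the 2970 tested rows with exons opposite a protein-coding gene, 874 (29.4%) overlapped it within 500 bp of its 5′ end. The same held for 4 of the 5 members (80.0%), with Gm13372 the exception, and for 71 of the 87 such rows called higher (81.6%). Of the 874 rows, 71 (8.12%) were called higher and the median log2 fold change was 0.16. Of the 2096 rows with the overlap farther away, 16 (0.763%) were called higher and the median was −0.05. These shares describe the rows and were not tested, and the members are among the rows called.

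Summed over the 5 opposite rows, the level was 382, 608 and 726 CPM in VLX-1005 replicates 1 to 3 and 190, 154, 109 and 152 CPM in vehicle replicates 1 to 4. Markers of T cells summed to 0.79 to 1.39 CPM with VLX-1005 and 0.797 to 4.24 CPM with vehicle, and those of B cells to 0 to 4.74 CPM with VLX-1005 and 0 in all vehicle libraries, both close to the limit of 3 counts. Like the other marker sums, these do not measure cell content.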
